A study of Mus musculus with 38 samples.

Results

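Cd24a, Pdgfra and Pdgfa are 3 of the 23481 genes listed in the bulk RNA-seq and SCRB-seq tables and 3 of the 22811 listed in the SMART-seq2 tables. They were chosen by name: Cd24a and Pdgfra encode the surface proteins CD24 and PDGFRA by which the cells were sorted, and Pdgfa encodes a ligand of PDGFRA. The study followed E14 mouse embryonic stem cells (mESCs) during exposure to 0.25 µM retinoic acid (RA). Bulk RNA-seq covered whole cultures at 10 times from 0 h to 96 h, SCRB-seq covered single cells at 9 times and SMART-seq2 at 4. Further bulk libraries were made from cells sorted with antibodies to CD24 and PDGFRA and from cells cultured after sorting, 25 bulk libraries in all.

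Undifferentiated mESCs were kept in 2i/L, a medium with a MEK inhibitor, a GSK3 inhibitor and LIF, and all RA-treated cells were in N2B27 medium. At 48 h, PDGFRA- cells were divided into quartiles of the CD24 signal, Q1 (lowest) to Q4 (highest). At 72 h, PDGFRA- cells were divided into CD24 terciles, T1 (lowest) to T3, and PDGFRA+/CD24- cells were collected separately. At 96 h, PDGFRA-/CD24+ (ectoderm-like) and PDGFRA+/CD24- (XEN-like, after extraembryonic endoderm) cells were sorted in 2 biological replicates each. Sorted ectoderm-like cells were also grown for 5 passages as an adherent culture, and sorted XEN-like cells for 3 weeks as floating aggregates, both with EGF and FGF2 and with 1 bulk library each. mESCs had 2 libraries, and every other bulk condition had 1. All cells came from the E14 line, so the replicates share 1 genotype. Positive and negative gates were set by the study against the signal of undifferentiated mESCs.

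CD24 is a short, heavily glycosylated protein that a glycosylphosphatidylinositol (GPI) anchor holds in the outer membrane, and it is widely used to sort neural progenitors and epithelial cells. PDGFRA is a receptor tyrosine kinase that dimerises on binding platelet-derived growth factor (PDGF) and then recruits adaptor proteins and phosphatidylinositol 3-kinase. In the early mouse embryo the receptor marks the primitive endoderm, while PDGF-A is made mainly by the neighbouring epiblast, so that ligand and receptor lie in adjacent tissues.

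Cd24a lies on chromosome 10 from 43578284 to 43584265 on the plus strand of GRCm38 (GENCODE M21), and its principal transcript has 2 exons. The coding sequence has only 231 bases, or 77 codons with the stop codon. It is shown because processed copies of this short stretch exist elsewhere in the genome. Only the coding stretch of the 1816-base transcript was compared, and whether the copies affected the counts of the sorting marker was not tested. Capitals mark the start and stop codons.
Cd24a: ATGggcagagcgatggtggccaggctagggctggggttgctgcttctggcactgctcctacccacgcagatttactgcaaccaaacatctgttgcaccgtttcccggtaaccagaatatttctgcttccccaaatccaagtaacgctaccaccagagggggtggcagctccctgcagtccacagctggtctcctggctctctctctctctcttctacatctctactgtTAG
The processed pseudogene Gm6212 matched 228 bases of it at 95.2% identity, Gm15352 matched 218 bases at 91.7%, and Gm34023 matched 227 bases at 84.6%. None of the 3 was listed in the bulk table, and reads from a copy that mapped to Cd24a cannot be told apart from its own. Pdgfra lies on chromosome 5 from 75152292 to 75198215 on the plus strand, with 23 exons and 3270 coding bases. Its closest relative among transcripts, Pdgfrb, matched over only 14.2% of the coding sequence, at 72.8% identity. Pdgfa lies on the same chromosome from 138976014 to 138997370 on the minus strand, with 6 exons and 591 coding bases.

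In the bulk libraries each value is a number of unique molecular identifiers (UMIs), tags by which each captured molecule was counted once. Libraries held between 1063830 and 2459483 UMIs, and values are given per 1000000 UMIs of the library (counts per 1000000, or CPM). The libraries sorted at 96 h were checked against their labels by 10 XEN markers (among them Sparc, Lama1, Gata4 and Gata6) and 10 ectoderm markers (among them Pax6, Sox1 and Crabp1), neither list holding the 3 genes. The XEN markers summed to 11905 and 6521 CPM in sorted XEN-like cells and to 482 and 1742 CPM in sorted ectoderm-like cells. The ectoderm markers summed to 3002 and 2415 CPM in ectoderm-like and to 602 and 308 CPM in XEN-like cells. The pluripotency markers (12 genes, among them Pou5f1, Nanog and Zfp42) summed to 6267 and 4524 CPM in XEN-like cells. In ectoderm-like cells they summed to 790 and 432 CPM. The genes did not all share this order. By the edgeR test described below, 5 were higher in XEN-like cells, 1 was lower and 6 were not called, Nanog among them. Of all genes, 6.99% were higher and 5.74% lower. Against mESCs all 12 were lower in XEN-like cells, beside 10.5% of all genes. Their log2 fold changes had a median of -4.60, with -9.33 for Dppa3 but -1.61 for Dppa5a and -1.22 for Klf4. The sums therefore do not stand for each gene. By the sums above, ectoderm-like replicate 2 held more of the XEN markers than replicate 1. Several of the tests below, though not all, are also given without ectoderm-like replicate 2.

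Over the time course of whole cultures, the receptor and the ligand went opposite ways, and Cd24a was lower up to 36 h than from 48 h on. Cd24a stood at 12.7 CPM at 0 h, 12.2 at 6 h, 9.25 at 12 h, 6.97 at 24 h and 14.5 at 36 h. It then stood at 82.5 CPM at 48 h, 96.1 at 60 h, 126 at 72 h, 148 at 84 h and 100.4 at 96 h. The second mESC library held 40.9 CPM of Cd24a, which is 3.23 times the first (95% interval 2.11 to 5.07). Intervals of single libraries and of their ratios are exact Poisson or binomial intervals and cover counting error only, and no test was run where a condition has 1 library. The difference at 24 h therefore depends on the mESC library: the ratio to 0 h was 0.550 (0.268 to 1.07) with the first and 0.170 with the second, whose interval lay below 1.

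Between 36 h and 48 h Cd24a differed 5.68-fold (3.71 to 9.08), the largest gap between neighbouring times in the plot of the time course. From 84 h to 96 h its level was lower, with a ratio of 0.680 (0.564 to 0.818). In a whole culture, fewer cells of a type and less RNA per cell cannot be told apart. At 96 h Cd24a was 7.92 times its level in the first mESC library (5.34 to 12.1) and 2.45 times that in the second (1.91 to 3.17). At least 2-fold higher levels at 96 h, with an interval past 1, were seen for 24.5% of 10179 genes, and lower ones for 8.3%.

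In bulk, Pdgfra was at the limit of detection before 48 h. The mESC libraries held 2 and 3 UMIs of it (0.875 and 1.31 CPM). There were none of 2045253 UMIs at 6 h, where a count of 0 allows up to 1.47 CPM, and 2, 3 and 1 at 12 h, 24 h and 36 h. It stood at 8.13 CPM at 48 h (20 UMIs), 11.4 at 60 h, 25.6 at 72 h, 48.7 at 84 h and 95.8 at 96 h. Its level at 96 h was 1.97 times that at 84 h (1.53 to 2.55), the interval in which Cd24a was lower. Against the first mESC library the ratio at 96 h was 109.5 (29.9 to 911), an imprecise value because it rests on 2 UMIs.

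Pdgfa had its highest levels in mESCs, at 33.2 and 38.3 CPM, and the libraries differed by less than counting error (ratio 1.15, 0.838 to 1.59). It stood at 32.3 CPM at 6 h, 15.0 at 12 h, 6.48 at 24 h and 4.24 at 36 h. The ratio of 36 h to 0 h was 0.127 (0.0496 to 0.275). Later levels lay between 6.61 and 12.0 CPM, with 8.20 CPM at 96 h, 0.247 times the level at 0 h (0.134 to 0.427). In the bulk libraries the ligand was thus at its low level by 24 h, and receptor counts above a few UMIs came at 48 h, though single cells below show receptor transcript earlier. Cd24a and Pdgfra were among the genes at least 2-fold higher at 96 h, and Pdgfa among those lower.

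**Figure D1:**
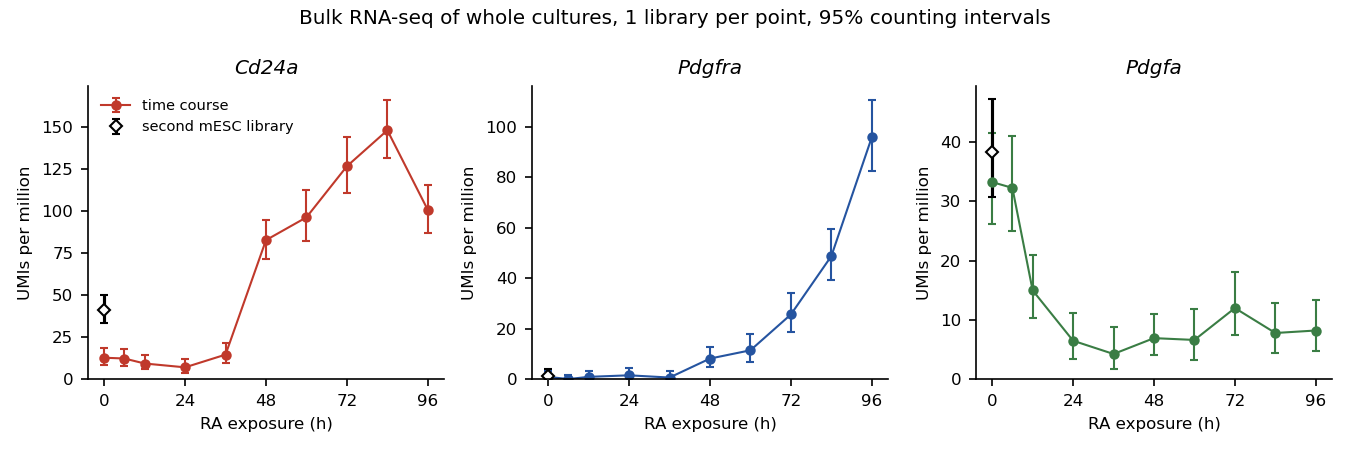
Levels of Cd24a, Pdgfra and Pdgfa (CPM, linear axis) in whole cultures against hours of RA exposure, 1 library per point, with 95% exact Poisson intervals, and the second mESC library as an open diamond. Cd24a reached 148 at 84 h, Pdgfra 95.8 at 96 h, and Pdgfa lay at 12.0 or below from 24 h on.

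The sorts at 48 h ask how far the transcripts follow the protein. Cd24a followed the CD24 quartiles step by step, with 19.4 CPM in Q1, 35.7 in Q2, 60.2 in Q3 and 127 in Q4. Each step was larger than counting error: Q2 was 1.84 times Q1 (1.14 to 3.02), Q3 was 1.68 times Q2 (1.15 to 2.49) and Q4 was 2.11 times Q3 (1.58 to 2.84). Since CD24 protein set the gates, this order is a check of the sort and not an independent result. The ratio of Q4 to Q1 was 6.54 (4.42 to 10.0), the 40th highest of 8980 genes compared, of which 4.33% were at least 2-fold higher in Q4 with an interval past 1 and 3.36% lower.

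The 2 genes outside the CD24 gate followed no such order at 48 h. Pdgfra had 3 UMIs in Q1, 11 in Q2, 3 in Q3 and 3 in Q4, or 2.01, 7.85, 2.82 and 1.89 CPM, and all 4 libraries were gated as PDGFRA-. The ratio of Q2 to Q1 was 3.92 (1.03 to 21.9), and that of Q4 to Q1 was 0.944 (0.126 to 7.05). Pdgfa stood at 2.68 CPM in Q1, 6.43 in Q2, 1.88 in Q3 and 3.16 in Q4, with a ratio of Q4 to Q1 of 1.18 (0.254 to 5.95). With at most 11 UMIs a library, these intervals still held differences of several fold in both directions. The XEN markers summed to 201 to 265 CPM in the 4 libraries, without a trend, while the ectoderm markers summed to 866, 999.7, 1362 and 1433 CPM from Q1 to Q4. The pluripotency markers summed to 6664, 6600, 5913 and 4292 CPM. The higher Cd24a of Q4 thus came with more ectoderm marker and less pluripotency marker RNA, and their part in the result was not tested. The 7 post-implantation epiblast markers, among them Pou3f1 and Fgf5, summed to 115, 100, 81.8 and 94.7 CPM from Q1 to Q4. The study reported that markers of this stage rose with CD24 in these sorts. It took CD24 as a sign of a post-implantation epiblast-like state. Its markers were read gene by gene, which a sum need not follow.

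At 72 h Cd24a again followed the CD24 gate within PDGFRA- cells, with 49.7 CPM in T1, 122 in T2 and 256 in T3. The ratio of T3 to T1 was 5.14 (3.92 to 6.83), the 67th highest of 8942 genes, of which 3.58% were at least 2-fold higher in T3 with an interval past 1 and 6.87% lower. Pdgfra ran the other way although all 3 libraries came from the PDGFRA- gate, with 15.5 CPM in T1 (20 UMIs), 6.18 in T2 (7 UMIs) and 2.30 in T3 (3 UMIs). It was 6.75 times higher in T1 than in T3 (2.00 to 35.5). Residual receptor transcript in negatively gated cells therefore lay mostly in those with the least CD24.

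Pdgfa, which no gate used, also lay lower in T3, with 8.55 CPM in T1 (11 UMIs), 7.06 in T2 (8 UMIs) and 1.54 in T3 (2 UMIs). It was 5.57 times higher in T1 than in T3, with a wide interval (1.22 to 51.7). The XEN markers had the same order, 782, 467 and 354 CPM, and so did the pluripotency markers, 4643, 1983 and 1314 CPM, while the ectoderm markers summed to 1245, 1926 and 2237 CPM. The part of these cell mixtures in the levels of Pdgfra and Pdgfa was not tested.

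PDGFRA+/CD24- cells at 72 h held 116 CPM of Pdgfra, 14.7 CPM of Cd24a and 7.35 CPM of Pdgfa. Pdgfra was 7.47 times T1 (4.68 to 12.6), 18.8 times T2 (8.92 to 47.5) and 50.4 times T3 (16.9 to 247). Cd24a was lower than in every tercile, by 3.38-fold against T1 (2.02 to 5.90), 8.28-fold against T2 and 17.4-fold against T3 (11.1 to 28.8). At least 2-fold higher levels in PDGFRA+ cells, with an interval past 1, were seen for 8.07%, 8.77% and 9.66% of genes against T1, T2 and T3, and lower ones for 13.5%, 13.2% and 13.3%. The 2 proteins defined these gates, so both transcripts went with their own protein. Pdgfa was near the level of T1 (ratio 0.860, 0.327 to 2.23) and T2 (1.04, 0.370 to 3.04), and was 4.79 times T3 (1.02 to 44.9). Ligand and receptor transcripts were therefore present together in the RNA of PDGFRA+ cells at 72 h, which does not say whether single cells held both. The pluripotency markers summed to 7169 CPM in these cells, beside 4264 CPM of XEN markers and 229 CPM of ectoderm markers. In mESCs the pluripotency markers summed to 13436 and 18353 CPM. A sum can rest on a few genes of its list, so these values do not show how far each gene was kept.

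**Figure D2:**
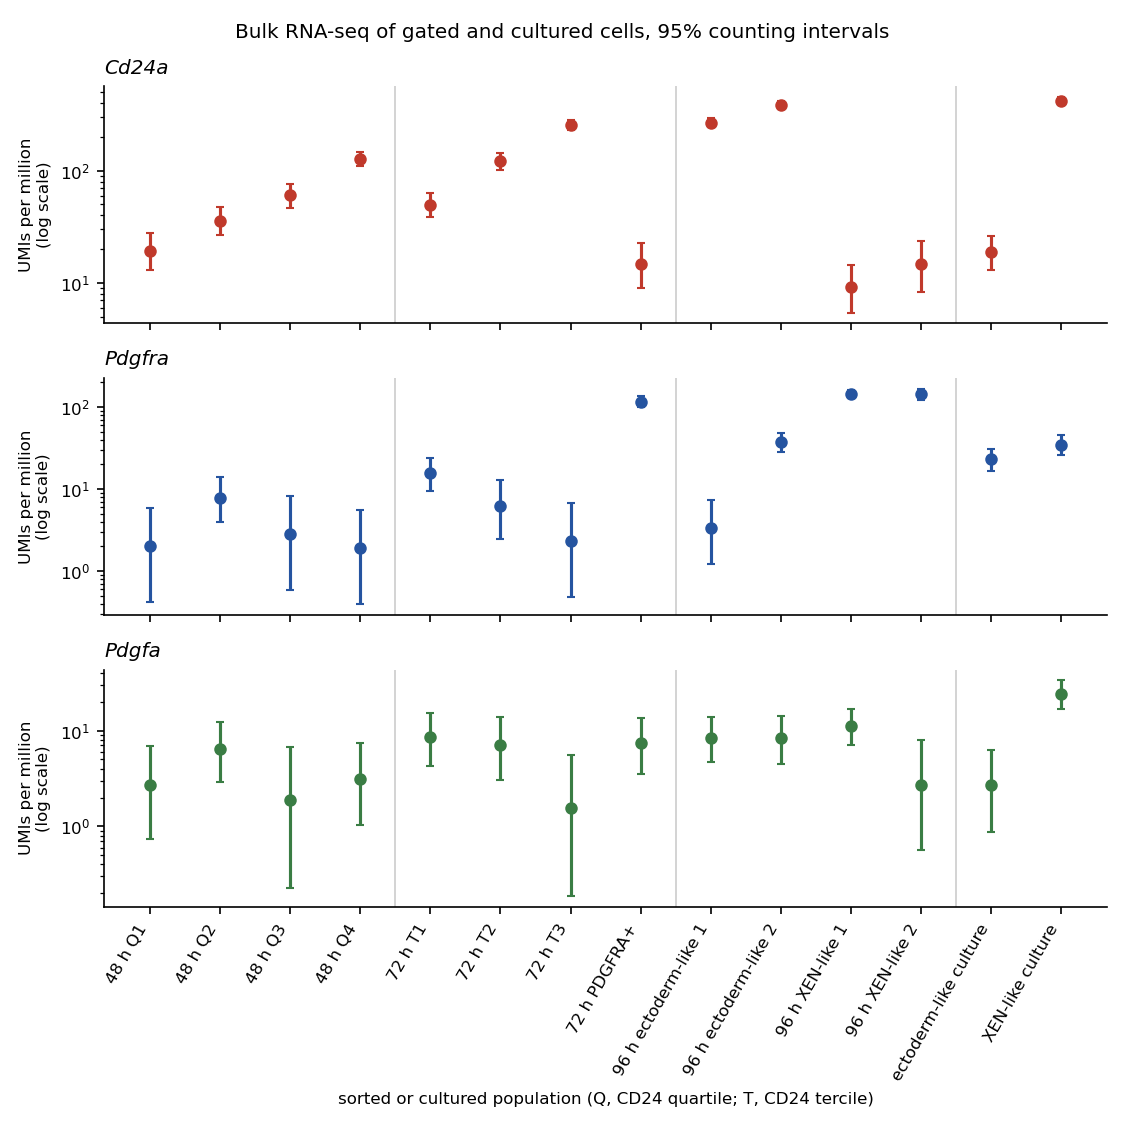
Levels of Cd24a, Pdgfra and Pdgfa (CPM, log axis) in the 48 h quartiles, the 72 h terciles and PDGFRA+ cells, the 96 h sorts and the cultures grown from sorted cells, 1 point per library with 95% exact Poisson intervals. Cd24a climbs from 19.4 to 127 over the 48 h quartiles and from 49.7 to 256 over the 72 h terciles, and in the cultures it is high in XEN-like (421) and low in ectoderm-like cells (18.7).

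At 96 h, sorted ectoderm-like cells held 268 and 388 CPM of Cd24a and sorted XEN-like cells 9.14 and 14.6 CPM, so the groups were far apart. Cd24a was lower in XEN-like cells by a log2 fold change of -4.74 ± 0.56 (SE, 2 libraries per group; adjusted p = 0.000895, edgeR's quasi-likelihood test with Benjamini-Hochberg adjustment over 8947 genes). Pdgfra had 144 and 143 CPM in XEN-like cells, 2 closely matching libraries, but 3.33 CPM (6 UMIs) and 36.8 CPM (57 UMIs) in ectoderm-like cells. Those ectoderm-like replicates differed 11-fold (4.77 to 31.3), and 3 marker lists of other cell types differed the same way. The XEN markers went from 482 to 1742 CPM. The 5 oligodendrocyte precursor markers, of a cell type known for Pdgfra, went from 1.11 to 16.8 CPM (2 and 26 UMIs, with Sox10 and Cspg4 at 0). The 6 trophoblast markers went from 62.2 to 180 CPM, nearly all of it Krt18, with Elf5 and Hand1 at 0. Other lists went down from replicate 1 to replicate 2. The mesoderm markers went from 19.5 to 10.3 CPM, the mesenchyme markers from 21.1 to 17.4 and the post-implantation epiblast markers from 68.9 to 49.7. The pluripotency markers went from 790 to 432 CPM and the ectoderm markers from 3002 to 2415. The part of other cells in the Pdgfra level was not tested. Pdgfra was higher in XEN-like cells by 2.94 ± 0.68 on the log2 scale (edgeR adjusted p = 0.0153). The difference was 5.61 without ectoderm-like replicate 2, and the call was lost without XEN-like replicate 2 (2.84, adjusted p = 0.0516) and with DESeq2 (2.93, adjusted p = 0.159). Between these groups 12.7% of genes were called, 6.99% higher and 5.74% lower in XEN-like cells, and the 2 calls of Cd24a and Pdgfra check the gates. Both calls held when libraries were scaled by their totals alone.

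Pdgfa, the gene outside the gate, did not pass the test between the lineages. It had 8.34 and 8.40 CPM in ectoderm-like cells and 11.2 and 2.73 CPM in XEN-like cells, where the replicates differed by 4.09-fold (1.23 to 21.3) and lay on both sides of the ectoderm-like values. The log2 fold change of XEN-like against ectoderm-like cells was -0.06 ± 0.52 (edgeR adjusted p = 0.962), with a 95% interval from -1.20 to 1.09. A difference of up to about this size in either direction could not be told from none with 2 libraries per group and at most 22 UMIs of Pdgfa in each.

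Against mESCs, both lineages held less ligand and more receptor transcript. Pdgfa was lower in ectoderm-like cells by a log2 fold change of -2.40 ± 0.44 (edgeR adjusted p = 0.00308) and in XEN-like cells by -2.46 ± 0.46 (adjusted p = 0.00248). These comparisons share the mESC libraries, of 33.2 and 38.3 CPM. All 3 genes were called in ectoderm-like cells against mESCs, where 19.1% of genes were (9.85% higher and 9.3% lower), and 2 of 3 in XEN-like cells, where 22.8% were (12.3% higher and 10.5% lower). Scaled by library totals alone, 1366 genes were higher and 589 lower in ectoderm-like cells, in place of 881 and 832, and 1339 and 703 in XEN-like cells, in place of 1103 and 939. Pdgfra was higher in XEN-like cells than in mESCs by 6.76 ± 0.93 (adjusted p = 0.000406). In ectoderm-like cells its log2 fold change was 3.81 ± 1.00 (edgeR adjusted p = 0.0202). It was 1.20 without ectoderm-like replicate 2 and 3.52 without mESC replicate 1, neither past the threshold.

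Relative to mESCs, ectoderm-like cells held more Cd24a, by 3.29 ± 0.49 (edgeR adjusted p = 0.000902). In XEN-like cells its log2 fold change was -1.45 ± 0.56, which did not pass the threshold (adjusted p = 0.0869). That value turned on the mESC libraries, of 12.7 and 40.9 CPM. Without mESC replicate 1 it was -2.09 (adjusted p = 0.00457), and without mESC replicate 2 it was -0.33 (adjusted p = 0.716). It passed the threshold without the filter on low counts (-1.47, adjusted p = 0.00189). Without XEN-like replicate 1 it was -0.94 (adjusted p = 0.418).

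Of the 6 genes for PDGF ligands and receptors, Pdgfb, Pdgfd and Pdgfrb were too low to be tested, and of the 2 ligands tested Pdgfc alone passed between the lineages, where 12.7% of all genes did. Pdgfc, whose product also binds PDGFRA, stood at 5.00 and 10.3 CPM in ectoderm-like cells, 0.508 and 0 CPM in XEN-like cells and 5.69 and 6.09 CPM in mESCs. It was lower in XEN-like than in ectoderm-like cells by a log2 fold change of -4.21 ± 0.98 (edgeR adjusted p = 0.0162), a fit that rests on 1 UMI in the 2 XEN-like libraries. Pdgfrb, the other receptor, stayed between 0.508 and 1.94 CPM in the 4 sorted libraries.

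Among 8 proteases and co-receptors of PDGFs, 4 were tested. Plat, which encodes tissue plasminogen activator, an activator of PDGF-C, was higher in XEN-like than in ectoderm-like cells, with 99.5 and 122 CPM against 47.2 and 47.8 CPM (log2 fold change 1.33 ± 0.30, edgeR adjusted p = 0.0150). The other 3, Nrp1, Pcsk6 and the convertase gene Pcsk7, did not pass the test between the lineages, so that 1 of 4 was called beside 12.7% of all genes. Against mESCs 3 of 4 were called in each lineage, beside 19.1% of all genes for the ectoderm-like and 22.8% for the XEN-like sort, and Pcsk7 was not. Plat was also higher than in mESCs in both lineages, by 4.10 ± 0.41 for the ectoderm-like sort and 5.43 ± 0.41 for the XEN-like sort. Nrp1, which encodes neuropilin 1, was higher than in mESCs by 5.48 ± 0.93 and 4.92 ± 0.98, and the convertase gene Pcsk6 was lower by -2.66 ± 0.62 and -2.09 ± 0.61. The medians over the 4 genes tested were log2 fold changes of 2.49 and 3.02, beside 0.05 and -0.06 over all genes.

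Of 16 genes for adaptors and enzymes that bind activated PDGF receptors, 12 were tested and 2 were higher in XEN-like than in ectoderm-like cells, or 16.7%, beside 6.99% of all genes that were higher. Gab1, a docking protein, differed by a log2 fold change of 2.02 ± 0.35 (edgeR adjusted p = 0.00414), and Pik3cb, a catalytic subunit of phosphatidylinositol 3-kinase, by 1.80 ± 0.50 (adjusted p = 0.0370). The median of the 12 was -0.27, beside -0.06 over all genes. Against mESCs, 2 of the 12 were lower in ectoderm-like cells, beside 9.3% of all genes, and 1 was higher in XEN-like cells, beside 12.3%.

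In the family of class III receptor tyrosine kinases, Kit was the only member besides Pdgfra that was high enough to be tested. Kit, the stem cell factor receptor gene and the next gene listed on the right of Pdgfra on chromosome 5, stood at 36.1 and 74.7 CPM in XEN-like and 6.11 and 24.6 CPM in ectoderm-like cells. It was higher in XEN-like cells by 1.97 ± 0.58 (edgeR adjusted p = 0.0476), close to the threshold. The next gene on the left, Gsx2, was too low to be tested.

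For CD24, 2 of 7 genes for binding partners and associated kinases were tested, and these Src family kinases went opposite ways. Lyn was higher in XEN-like cells by 2.18 ± 0.49 (edgeR adjusted p = 0.0135), with 26.9 and 13.7 CPM against 4.45 and 5.17 CPM. Fyn was lower by -1.89 ± 0.40 (adjusted p = 0.0106), with 8.63 and 9.11 CPM against 34.5 and 35.5 CPM. Of 24 genes that build or attach GPI anchors, 18 were tested and 1 differed between the lineages, or 5.56% against 12.7% of all genes. This gene, Pigp, stood at 966 and 1458 CPM in mESCs, 577 and 349 CPM in XEN-like and 106 and 96.9 CPM in ectoderm-like cells, so a subunit of the first enzyme of the anchor pathway was lowest, of these 3 groups, where Cd24a was highest. Its log2 fold change between the lineages was 2.28 ± 0.31 (adjusted p = 0.00136).

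Most calls of these list genes between the lineages were lost when 1 library was left out, although no direction changed. A group then has 1 library, which lowers the power for every gene. A lost call therefore need not mean that 1 library carried the difference. Plat was 1.33 with all libraries, 1.29 without ectoderm-like replicate 1 and 1.45 without ectoderm-like replicate 2. Kit changed more, at 1.97, 1.25 and 3.38. Without ectoderm-like replicate 2, Gab1 (log2 fold change 2.42, edgeR adjusted p = 0.0135), Kit (3.38, adjusted p = 0.0181) and Pigp (2.34, adjusted p = 0.0124) still passed. Without it Pdgfc (-3.51, adjusted p = 0.119), Plat (1.45, adjusted p = 0.0633), Pik3cb (2.27, adjusted p = 0.0776), Lyn (2.40, adjusted p = 0.0629) and Fyn (-1.75, adjusted p = 0.0629) did not. Without ectoderm-like replicate 1, Gab1 (1.75, adjusted p = 0.0627), Kit (1.25, adjusted p = 0.319), Plat (1.29, adjusted p = 0.132), Pik3cb (1.47, adjusted p = 0.299), Lyn (2.05, adjusted p = 0.144) and Fyn (-1.93, adjusted p = 0.0642) missed the threshold. Only Pigp passed with each of the 6 libraries left out in turn.

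Some of these calls were also lost without 1 of the XEN-like libraries. Without XEN-like replicate 1 the adjusted p was 0.101 for Pdgfc, 0.123 for Pik3cb, 0.187 for Lyn and 0.102 for Fyn. Without XEN-like replicate 2 it was 0.0819 for Pdgfc, 0.127 for Pik3cb, 0.126 for Plat and 0.296 for Kit (all edgeR). Against mESCs, Plat passed in both lineages with any 1 library left out. Nrp1 in XEN-like cells missed the threshold without XEN-like replicate 1 (3.66, adjusted p = 0.0858). Pcsk6 missed it in ectoderm-like cells without ectoderm-like replicate 2 (adjusted p = 0.0924), and in XEN-like cells without any 1 of the mESC or XEN-like libraries (adjusted p from 0.0630 to 0.199).

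In the cultures grown from sorted cells, Cd24a stood in the reverse order of the sorted cells. The XEN-like culture, sorted as CD24-, held 421 CPM of Cd24a, which is 46 times (28.9 to 78.2) and 28.9 times (17.6 to 50.8) the levels of the sorted XEN-like replicates. The ectoderm-like culture, sorted as CD24+, held 18.7 CPM, which is 14.3-fold (10.2 to 20.8) and 20.7-fold below the sorted ectoderm-like replicates. At least 2-fold differences with an interval past 1 were common here. They were seen for 22.1% and 27.4% of genes higher and 16.3% and 12.5% lower in the XEN-like culture. In the ectoderm-like culture they were seen for 17.2% and 18% higher and 14.8% and 10.6% lower. Between the cultures Cd24a differed 22.5-fold, with the higher level in the XEN-like culture.

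Pdgfra differed less between the cultures, with 34.5 CPM for XEN-like and 23 CPM for ectoderm-like cells, a ratio whose interval (0.977 to 2.31) held 1. In the XEN-like culture it was 4.17-fold (3.08 to 5.75) and 4.15-fold (3.00 to 5.82) below the sorted replicates. In the ectoderm-like culture it was 6.90 times replicate 1 (2.93 to 19.8) but 0.625 times replicate 2 (0.411 to 0.945), so no direction was shared by the replicates. Pdgfa was highest in the XEN-like culture after mESCs and the 6 h culture, at 24.1 CPM, which is 2.16 times (1.23 to 3.87) and 8.83 times (2.78 to 44.9) the sorted replicates. In the ectoderm-like culture it stood at 2.68 CPM, 0.321 times (0.0913 to 0.929) and 0.319 times (0.0890 to 0.953) the sorted replicates, or 0.578 and 0.591 times relative to Gapdh. The XEN-like culture therefore held 9.02 times the ligand transcript of the ectoderm-like culture (3.52 to 29.5).

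The cultures also differed from the sorted cells in their markers. In the ectoderm-like culture all 8 mesenchyme markers (among them Col1a1, Col3a1 and Postn) had UMIs and summed to 3933 CPM, against at most 21.1 CPM in every other library, and its ectoderm markers summed to 1634 CPM. Pdgfrb and Pdgfc were at their highest there, at 19.8 and 17.7 CPM. The XEN-like culture held 10063 CPM of XEN markers, with 1131 CPM of ectoderm markers and 194 CPM of Kit. Its pluripotency markers summed to 718 CPM, against 6267 and 4524 CPM in sorted XEN-like cells, and its trophoblast markers to 550 CPM, nearly all Krt18, against 103 and 142 CPM. Whether the levels of Cd24a, Pdgfra and Pdgfa moved with these markers within cells was not tested. With 1 library per culture, culture conditions, time in culture and the lineage cannot be told apart.

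SCRB-seq gives the same kind of UMI counts for single cells sorted into plates of 384 wells. Wells with more than 2000 UMIs were kept as cells, 2448 of 3456, with 137 to 335 cells per time and median totals between 3560 and 5069 UMIs. All 9 plates use the same 384 well names, which are positions and not cells. Each time point is 1 culture, so cells are not replicates and no test was run. Summed over cells, Cd24a stood at 0.600 UMIs per 10000 UMIs at 0 h, 0.312 at 6 h, 0.0365 at 12 h, 0.183 at 24 h and 0.168 at 36 h. It stood at 1.25 at 48 h, 1.49 at 60 h, 2.94 at 72 h and 2.02 at 96 h. As in the bulk libraries, levels before 48 h lay below those from 48 h on, and the highest came before 96 h. The 0 h level (0.494 to 0.721) was nevertheless above those from 6 h to 36 h.

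Pdgfra rested on at most 3 UMIs a time up to 24 h, including 0 of 285 cells at 12 h, which allows a share of up to 1.05%. Its level was 0.0819 per 10000 UMIs at 36 h (20 UMIs in 13 cells, upper limit 0.126), an interval that overlapped that of 48 h. It stood at 0.106 at 48 h, 0.424 at 60 h, 0.267 at 72 h and 1.76 at 96 h. The share of cells with a Pdgfra UMI was 0.709% among 0 h cells, taken as the background, and 36.5% at 96 h (28.4 to 45.1%), at median depths of 3939 and 4028 UMIs. Thinned to 2000 UMIs per cell, with no cell left out, these shares were 0.709% and 24.1%. The 96 h share thus lay far above that at 0 h.

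Pdgfa was highest at 6 h, at 1.32 UMIs per 10000, after 0.748 at 0 h and before 0.845 at 12 h and 0.118 at 24 h. From 24 h to 96 h it stayed between 0.0778 and 0.285. At 6 h, 37.6% of cells had a Pdgfa UMI, with 23 UMIs in a single cell. Without wells over 20000 UMIs, left out in an alternative chosen after seeing the data, the 6 h level was 1.13. At 96 h Pdgfa was found in 6 of 137 cells (4.38%), too few to compare between kinds of cells. At 96 h, 247 wells had 2000 UMIs or fewer and were left out, more than the 137 kept. Together they held 2.74 UMIs of Pdgfra and 1.03 of Cd24a per 10000, against 1.76 and 2.02 in the cells kept, so the levels at 96 h depend on which wells are counted.

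**Figure D3:**
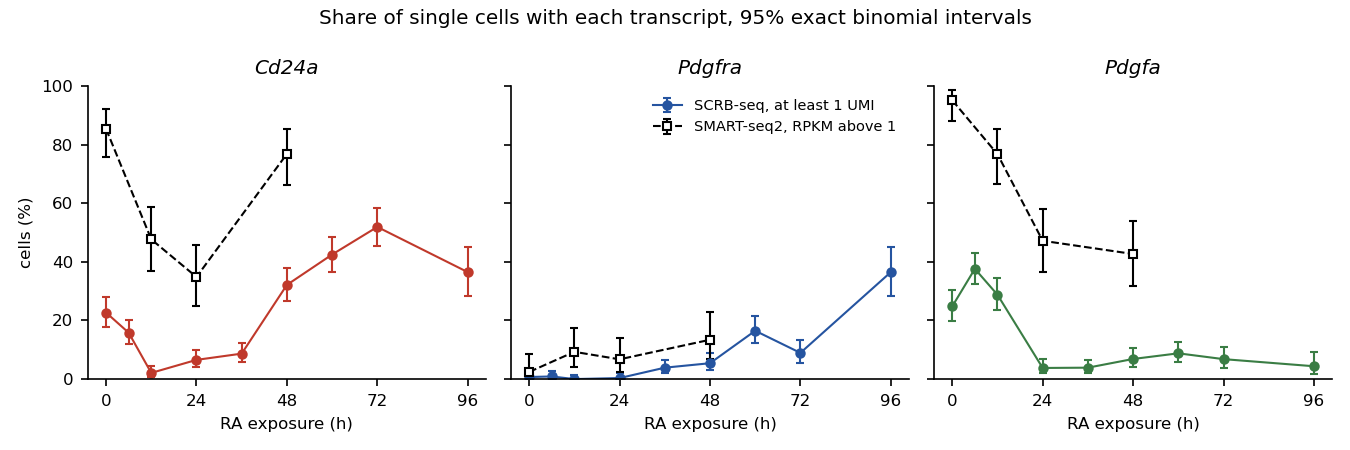
Share of cells (%) with at least 1 UMI of each gene in SCRB-seq (filled circles) and above 1 RPKM in SMART-seq2 (open squares) against hours of RA exposure, with 95% exact binomial intervals. SCRB-seq cells were not thinned, so depth differs between times. Pdgfra reaches 36.5% at 96 h in SCRB-seq and 13.4% at 48 h in SMART-seq2, and Pdgfa is highest at 0 h in SMART-seq2 (95.1%) and at 6 h in SCRB-seq (37.6%).

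The protein gates treat CD24 and PDGFRA as marks of different cells, and the single cells allow the same question of the transcripts. At 96 h, after thinning to 2000 UMIs, 22 of 137 cells had a Cd24a UMI, 33 had a Pdgfra UMI and 5 had both. If the genes were spread over cells without regard to each other, 5.30 cells would have both, and the ratio of observed to this number was 0.944. Of cells with Pdgfra, 15.2% had Cd24a, against 16.3% of cells without it. At 60 h, 5 cells had both against 4.18 (ratio 1.20), and at 72 h 3 cells against 2.17 (ratio 1.38). At 48 h no cell of 277 had both against 0.422, and a count of 0 allows a share of up to 1.08%. At these depths the transcripts were not seen to exclude each other, and the numbers are small: the share with both at 96 h was 3.65% (1.20 to 8.31%). By antibody staining the study saw clearly separate CD24 and PDGFRA populations at 96 h. That is a protein result, which these sparse transcript counts cannot test.

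Without thinning, 21 of the 137 cells at 96 h had both transcripts, against 18.2 if unrelated. Depth differed between these cells: those with both had a median of 6666 UMIs, those with Pdgfra alone 4361, those with Cd24a alone 4895 and those with neither 3277. Their XEN markers were high with Pdgfra, whether or not Cd24a was found. XEN markers made up 161 UMIs per 10000 in cells with both and 168 in cells with Pdgfra alone, against 89.4 in cells with Cd24a alone and 109 in cells with neither. Ectoderm markers ran the other way, at 16, 13, 21 and 19 UMIs per 10000. The cells with the most Cd24a, 26 and 18 UMIs, had no Pdgfra UMI, and the cell with the most Pdgfra, 13 UMIs, had no Cd24a UMI. A cell of 25543 UMIs had 8 of Cd24a and 7 of Pdgfra, so high counts of both also occurred. Every cell kept at 96 h held XEN marker UMIs, at least 15.1 per 10000. Whether cells with both are doublets, or hold RNA from other wells, was not tested. At 96 h only 2 cells had over 20000 UMIs.

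In SCRB-seq the ligand and the receptor were found together in few cells, and Pdgfa itself in only 6.86% of cells at 48 h and 4.38% at 96 h. After thinning, no cell at 96 h had both Pdgfa and Pdgfra, against 0.482 if unrelated, and 1 cell did without thinning, against 2.19. At 36 h the unthinned number was 3 cells against 0.506, and at 48 h 5 against 1.03. After thinning these were 0 against 0.0749 and 0 against 0.0758. At 60 h the unthinned number was 13 cells against 3.96, and at 72 h 6 against 1.43. After thinning these were 0 against 0.586 and 1 against 0.238. The excess at 60 h was thus not seen at equal depth, where the numbers are too small to show a difference in either direction. At 0 h Cd24a and Pdgfa were together in 7 of 282 thinned cells, against 3.39 if unrelated.

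The 96 h cells were divided into 2 clusters by k-means on variable genes other than the 3 members. Cluster 1 (70 cells) had 77.7 XEN marker and 23.7 ectoderm marker UMIs per 10000, and cluster 2 (67 cells) had 191 and 10.5. The clusters are called by number because they separated the XEN markers only in part. The genes that led cluster 2 by fold held the pluripotency markers Dppa5a and Klf4 and no XEN marker. In the sorted bulk libraries both genes were also higher in XEN-like than in ectoderm-like cells. Their log2 fold changes were 3.86 and 3.12 (edgeR adjusted p = 0.000258 and 0.00139). Cd24a stood at 2.90 UMIs per 10000 in cluster 1 and 1.06 in cluster 2 (ratio of cluster 2 to cluster 1 of 0.366, 0.245 to 0.536). Pdgfra stood at 1.51 and 2.04 (ratio 1.36, 0.943 to 1.96). Pdgfa had 5 and 2 UMIs (ratio 0.435, 0.0414 to 2.66). The study took CD24 as a marker partly from these cells, so the Cd24a difference is not independent of them.

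How far the clusters separated Pdgfra depended on how they were made. The ratio of Pdgfra was 5.94 with clusters made on a log2 scale, 5.88 with clusters made on marker genes alone and 13.9 among cells with more than 4000 UMIs. For Cd24a these values were 0.445, 0.419 and 0.311. At 72 h, classed by the closest of the cluster and 0 h profiles, 26 cells fell to the cluster 2 profile and held 0.899 UMIs of Pdgfra per 10000 against 0.235 in the 185 cells of the cluster 1 profile (ratio 3.83, 1.58 to 8.44). Cd24a was lower in them (1.40 against 3.23, ratio 0.433, 0.234 to 0.736).

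SMART-seq2 covers full transcripts and gives RPKM, reads scaled by transcript length and by library size, so that genes can be compared by level. It was run on 82 cells at 0 h, 86 at 12 h, 89 at 24 h and 82 at 48 h, with 1 culture per time. The RPKM of each cell were scaled to the median total of 0 h cells. Depth per cell is unknown from such values, and no detection limit is given. At 0 h the means over cells were 94.9 RPKM for Cd24a, 84.6 for Pdgfa and 0.600 for Pdgfra, so per length mESCs held about as much Cd24a as Pdgfa transcript, and little receptor. Cd24a had means of 19.6 RPKM at 12 h, 12.8 at 24 h and 102 at 48 h, with SDs over cells of 82.1, 26.7, 24.0 and 136 from 0 h to 48 h. Its share of cells above 1 RPKM was 85.4% at 0 h (75.8 to 92.2%), 47.7% at 12 h, 34.8% at 24 h and 76.8% at 48 h (66.2 to 85.4%). Cd24a was listed at 0 in 45 cells at 12 h and 57 at 24 h, and in 19 at 48 h. In SMART-seq2 the 0 h level and share were thus near those of 48 h, with lower values between. In bulk and SCRB-seq the 0 h level lay below that of 48 h.

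Pdgfa was lower at each later time in both level and number of cells. Its means were 84.6 RPKM at 0 h, 52.9 at 12 h, 23.4 at 24 h and 20.2 at 48 h. It was above 1 RPKM in 95.1% of cells at 0 h (up to 98.7%), 76.7% at 12 h, 47.2% at 24 h and 42.7% at 48 h (31.8 to 54.1%). In the cells that were above 1 RPKM the median was 78 RPKM at 0 h and 31.5 at 48 h. Pdgfra was above 1 RPKM in 2 cells at 0 h, 8 at 12 h, 6 at 24 h and 11 at 48 h, or 2.44%, 9.30%, 6.74% and 13.4% of cells, with intervals that overlapped between all 4 times. Of the other PDGF genes, Pdgfc was above 1 RPKM in 41.5% of mESCs and 18.3% of cells at 48 h, and Pdgfrb in 8.54% and 4.88%. Kit, the related receptor, was above 1 RPKM in 95.1% of mESCs and 59.8% of cells at 48 h.

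Of the 11 cells with Pdgfra at 48 h, 8 also had Cd24a, against 8.45 if unrelated (ratio 0.947). Cd24a was above 1 RPKM in 72.7% of cells with Pdgfra and 77.5% of the others. Pdgfa was above 1 RPKM in 5 of the 11, against 4.70 if unrelated. By these shares, neither partner was seen to avoid or to accompany the receptor in these few cells. With Cd24a above 1 RPKM in most cells, such a share can hardly show avoidance. By level, the median of Cd24a was lower in cells with Pdgfra than in the others, a difference that was not tested. The study classed cells of this time as XEN-like or ectoderm-like by high Pdgfra or high Cd24a transcript. The cell with the most Pdgfra, at 106 RPKM, was listed at 0 for Cd24a and for Pdgfa and had a mean of 201 RPKM over the XEN markers, all 10 of them above 1 RPKM. The next 2 cells, at 76.5 and 74.7 RPKM of Pdgfra, had 122 and 33.6 RPKM of Cd24a and means of 24.0 and 23.8 RPKM over the XEN markers. Another 3 cells, with 33.3 to 41.3 RPKM of Pdgfra and 25.6 to 38.2 RPKM of Cd24a, had XEN means of 80.1 to 118 RPKM.

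Across all cells at 48 h, the median of the XEN means was 30.7 RPKM in cells with Pdgfra and 21.4 in the others, and that of the ectoderm means was 151 and 242 RPKM. In both groups the ranges were wide and overlapped, from 4.03 to 201 and from 4.50 to 83.9 RPKM for the XEN means. Cells with Cd24a had a median ectoderm mean of 242 RPKM, against 143 RPKM in cells without it. Their pluripotency means had medians of 57.6 and 118 RPKM.

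**Figure D4:**
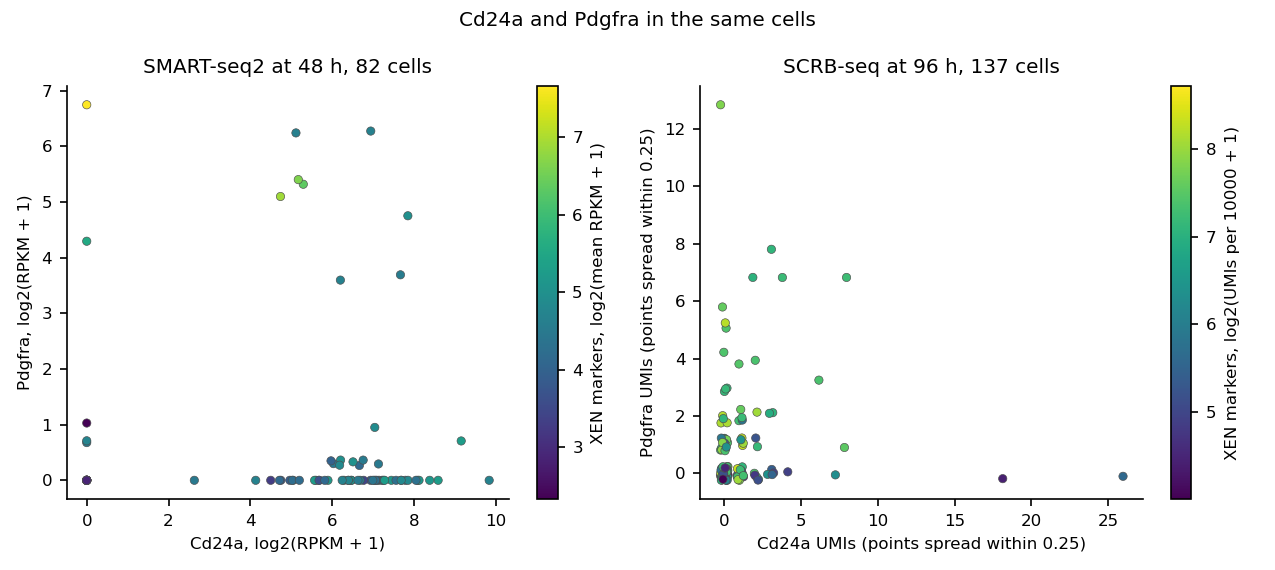
Cd24a against Pdgfra in single cells, in SMART-seq2 at 48 h (82 cells, log2(RPKM + 1)) and SCRB-seq at 96 h (137 cells, UMIs, points spread at random to show overlaps), coloured by the XEN markers of the cell. The cell with 106 RPKM of Pdgfra lies at 0 for Cd24a, 8 cells at 48 h have both above 1 RPKM, and the cell with 26 UMIs of Cd24a has no Pdgfra UMI.

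Over the 25 bulk libraries, which share cultures and are not independent, the genes with the pattern most like each member were ranked by Pearson's r of log2(CPM + 1) among 6405 genes. For Cd24a these were Ednrb (r = 0.898), Ralgps2 (0.881), Cxadr (0.880), Trove2 (0.842) and Net1 (0.841), and the least like were Eif4e2 (-0.868) and Mrps18b (-0.819). For Pdgfra they were Cited1 (0.967), P4ha1 (0.966), Pth1r (0.956), Tax1bp3 (0.949) and Dnajc10 (0.948), against Prps1 (-0.878) and Rnf138 (-0.874). For Pdgfa they were Akap1 (0.857), Usp9x (0.843), the pluripotency marker Tfcp2l1 (0.829), Qars (0.786) and B4galt6 (0.782), against Dhcr7 (-0.850) and Chchd1 (-0.791). The 3 members were unlike each other, with r of 0.169 between Cd24a and Pdgfra, -0.0879 between Cd24a and Pdgfa and -0.118 between Pdgfra and Pdgfa. Without the cultures only 1 of the 5 genes named for Cd24a, 3 for Pdgfra and 2 for Pdgfa were again among the 5 most alike.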

How the data were processed

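The bulk and SCRB-seq values are UMI counts that the authors deposited without normalization, after alignment with BWA 0.7.4 to mouse RefSeq mRNAs of the mm10 set and counting of each UMI once per gene and library or well. The SMART-seq2 values are RPKM that the authors made with TopHat and Cuffnorm and deposited as such. The tools are those of the submitters' processing notes and the study's methods. Cell capture and alignment were not repeated.

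The 3 genes and all gene lists were chosen with earlier results of these data known. In the bulk table, 2 genes with 3 damaged values (Gkn2 and Rn45s) were left out of all totals. In the SMART-seq2 tables, 10206 values with a decimal comma were read as numbers, and all cells were brought to 1 common total, the median at 0 h. CPM were computed from library totals. Groups with 2 libraries (mESCs, sorted ectoderm-like and XEN-like cells) were compared in R 4.3.3 by edgeR 4.0.16, with its default low-count filter and TMM scaling, 1 quasi-likelihood fit of the 6 libraries, Benjamini-Hochberg adjustment over the 8947 genes tested and a threshold of 0.05. DESeq2 1.42.0, other scalings, no filter, the block on replicate numbers and leaving out each library were alternatives. The labels call the sorted libraries biological replicates but do not say which were made together. Conditions with 1 library were set side by side as ratios, each with an exact binomial 95% interval given the sum of both counts. The share of genes past 2-fold was taken over genes with at least 10 summed counts.

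SCRB-seq wells counted as cells above 2000 UMIs. They were thinned to 2000 UMIs for co-detection and for the shares said to be thinned. All other shares, and those plotted, are unthinned. No doublet caller was run. Clusters came from k-means with 2 clusters on 1 minus the Pearson correlation over 828 variable genes, and earlier cells were classed by their highest correlation with the cluster and 0 h profiles. SMART-seq2 cells were counted as expressing a gene above 1 RPKM. Both steps across many genes were tested on simulated data. Genes were named by a rule: the 3 members, up to 4 genes per list with the largest change past the threshold between the lineages, the 5 most and 2 least similar patterns among genes with a mean of at least 10 CPM, the listed neighbours of each member and the reference genes Gapdh and Actb. Nrp1, Pcsk6 and Pdgfrb were named after their values were seen. Coordinates and the coding sequence are from GENCODE M21 on GRCm38, to which mm10 corresponds, and sequences were compared with BLAST 2.17.0. Python 3.11.15 with numpy 2.4.6, pandas 2.3.3, scipy 1.17.1 and matplotlib 3.10.9 was used.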

Additional observations from a re-analysis of the deposited data

Results flagged for a closer look

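Cd24a and Pdgfa changed in opposite directions between sorted and cultured cells of the lineages. Against the sorted replicates 1 and 2, Cd24a was 0.0698 and 0.0483 times as high in the ectoderm-like culture and 46 and 28.9 times as high in the XEN-like culture. Pdgfa was 0.321 and 0.319 times as high in the ectoderm-like culture and 2.16 and 8.83 times as high in the XEN-like culture. On library totals all 8 counting intervals lay on 1 side of 1, and those of Pdgfa in the ectoderm-like culture came close to it (upper limits 0.929 and 0.953). Relative to Gapdh these Pdgfa ratios were 0.578 and 0.591, for which no interval was computed. The difference between the lineages was not tested, since each culture has 1 library, and no group had enough libraries to look for a library far from the others.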

How the results depend on the processing

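Of 419 values under alternatives, 379 kept their direction and side of the threshold or moved by less than their error. With DESeq2 the genes called numbered 1112 for ectoderm-like cells against mESCs, against 1713 with edgeR, and 718 between the lineages, against 1139, and Pdgfra between the lineages was 2.93 (adjusted p = 0.159). With a replicate block the lineages differed in 2734 genes and no member's call changed. Same-numbered sorted libraries correlated at 0.333 in their deviations, over only 2 pairs, and the labels give no shared day. Leaving out 1 library at a time gave 885 to 1750 genes called for ectoderm-like cells against mESCs, 1270 to 1956 for XEN-like cells against mESCs and 269 to 1372 between the lineages. The lone library left is then assumed to vary like the other groups. The same ranges of log2 fold change were 1.20 to 4.77 for Pdgfra in ectoderm-like cells against mESCs, -2.09 to -0.33 for Cd24a in XEN-like cells against mESCs, and 2.04 to 5.61 for Pdgfra and -1.34 to 0.42 for Pdgfa between the lineages. Pdgfa was reversed without ectoderm-like replicate 2 (0.06) and without XEN-like replicate 2 (0.42), never past the threshold. Without the filter on low counts, Cd24a in XEN-like cells against mESCs was -1.47 and called. Scaling by library totals alone moved the genes called higher and lower from 881 and 832 to 1366 and 589 in ectoderm-like cells against mESCs, and from 1103 and 939 to 1339 and 703 in XEN-like cells, with medians over all genes of 0.36 and 0.15. Pdgfra was filtered out of the ectoderm-like comparison when only its 4 libraries were used.

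Among single libraries, the 96 h ratio of Cd24a was 2.45 with the second mESC library. Relative to Gapdh, Cd24a in the ectoderm-like culture was 0.126 and 0.0896 times the sorted replicates, Pdgfa 0.578 and 0.591 times, and Pdgfra there was reversed against replicate 2, at 1.16. Relative to Actb, Pdgfra in the XEN-like culture was 0.408 and 0.390 times the sorted replicates. In SCRB-seq, alternatives chosen after seeing the data gave Pdgfa levels of 0.582, 1.09, 0.719 and 0.0688 at 0 h, 6 h, 12 h and 24 h as means of per-cell levels, and 1.13 at 6 h without wells over 20000 UMIs. Co-detection of Cd24a and Pdgfra at 60 h was 0 with wells over 1000 UMIs, thinned to that number. The cluster ratio of Pdgfra was 13.9, 5.94 and 5.88 under the settings given with it. With any value above 0 counted, Pdgfra was found in 11%, 22.5% and 28% of SMART-seq2 cells at 0 h, 24 h and 48 h. Of the 5 genes most like each member, 1, 3 and 2 were shared without the cultures and 3 for Pdgfa with log2(CPM + 5). The cause of these shifts was not tested. Depth limits Pdgfra before 48 h in bulk and Pdgfa in the sorted libraries, where it had at most 22 UMIs.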
